A study of Oryza sativa with 6 samples.

Results

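Cyclins and cyclin-dependent kinases were compared between shoot tips of *Osrdr1* rice seedlings and of their sibling wild type (WT). Members were taken by name from a table of rice genes. They are named as cyclins of any type but D, as cyclin-dependent kinases (CDK), as the kinase subunit CKS1 or as Kip-related protein (KRP) inhibitors. That table names 40 such genes, and 32 of them have a probe set of their own on the array, out of 17905 genes measured. The other 8 (CDKB1-1, CDKC-2, CDKF-2, CYCA3-1, CYCB1-5, CYCT1-1, KRP2 and KRP3) were not analysed here. *Osrdr1* is homozygous for a Tos17 retrotransposon in the second exon of *OsRDR1*, which encodes an RNA-dependent RNA polymerase, and WT segregated from the same selfed line of the variety Hitomebore, so both genotypes descend from 1 insertion line. Seeds of both genotypes germinated in the dark for 2 days at 28 °C, then spent about 48 h in a greenhouse at 26 °C on a cycle of 16 h light and 8 h dark. Each genotype had 3 biological replicates, each on 1 Affymetrix Rice Genome Array. No probe set was matched to *OsRDR1*, and the genotype labels therefore have no check in these values. The 32 members were read on 44 probe sets, and the brightest of a gene stands for it.

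Cyclins are proteins that switch on CDKs by binding to them, and the classes act at different times. D-type cyclins work at the entry into the cycle and A-type cyclins mainly in S and G2 phases. B-type cyclins work in mitosis, together with the plant-specific CDKB kinases, whose transcripts accumulate in G2 and M phases. KRP proteins bind and inhibit cyclin-CDK complexes. Cyclins of types C, H, L and T pair with CDKs that act mostly on RNA polymerase II, splicing factors or other CDKs. In a shoot tip, dividing cells such as those of the meristem and young leaf primordia are a source of transcripts of the mitotic members. Which cells gave the signal was not tested.

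The mitotic kinase gene CDKB2-1 and the B-type cyclin gene CYCB2-1 fell in *Osrdr1*, to 0.704 and 0.729 times the WT signal, and they were the only members called. All 4 B-type cyclins had lower signal on every *Osrdr1* array than on any WT array, while neither CDKA gene did. No member was called higher, and the highest log2 fold change was that of KRP6 (0.59, limma adjusted p = 0.137). Thus 2 of 32 members fell and 0 rose at an adjusted p under 0.05 by limma. Over all genes, 1.13% were called lower and 3.44% were called higher. Before adjustment, 9 members (28.1%) were lower and 2 were higher at p under 0.05, where 11.3% of all genes were lower and 16.4% were higher. On 12 members (37.5%) all *Osrdr1* arrays lay below all WT arrays, against 15.2% of all genes, and on 3 members they lay above, against 19.4% of all genes. The median log2 fold change of the members (*Osrdr1* minus WT throughout) was -0.06, and that of all genes was 0.004. The median of the members was -0.11 without *Osrdr1* replicate 1, -0.10 without *Osrdr1* replicate 3, -0.09 without WT replicate 2 or WT replicate 3, -0.04 without *Osrdr1* replicate 2 or WT replicate 1, and -0.03 with arrays centred on their medians, where that of all genes was 0.04.

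All values below are log2 signals as the authors normalized them, so a difference of 1 is a doubling. Only CYCB1-3 and CYCF2-2 had a mean below the median of all probe sets (4.91), where signal and background are hard to separate. Signals of different genes depend on their probes, so the level of 1 gene is compared only between arrays. In whole shoot tips, fewer cells of a type and less RNA per cell cannot be told apart.

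CDKB2-1 (LOC4346016, chromosome 8) had the lowest p and the lowest log2 fold change of all members. It had 10.05, 10.00 and 10.09 in *Osrdr1*, against 10.59, 10.57 and 10.51 in WT. The groups were far apart relative to their spread, with means of 10.05 ± 0.05 in *Osrdr1* and 10.55 ± 0.04 in WT (SD, n = 3 each). Its log2 fold change was -0.51 (SE 0.07, 95% interval -0.67 to -0.34, limma adjusted p = 0.0229), or 0.704 times the WT signal. Among the 202 genes called lower, whose median was -0.59, it ranked 139th by size and 42nd by p.

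CYCB2-1 (LOC4336670, chromosome 4), a B2-type cyclin of mitosis, was likewise lower on every *Osrdr1* array. It had 9.10, 9.11 and 9.17 in *Osrdr1*, against 9.68, 9.52 and 9.55 in WT. The log2 fold change was -0.46 (SE 0.08, 95% interval -0.64 to -0.27, limma adjusted p = 0.0368), or 0.729 times the WT signal. Among the 202 genes called lower, CYCB2-1 ranked 166th by size and 117th by p.
Leaving out any array but WT replicate 3 removed both calls, while the sizes moved little. In those fits the calls over all genes fell too, from 202 lower and 616 higher to at most 11 and 112. CDKB2-1 had adjusted p-values of 0.112, 0.0859 and 0.114 without *Osrdr1* replicates 1, 2 and 3, and of 0.094, 0.0902 and 0.0295 without WT replicates 1, 2 and 3 (limma). CYCB2-1 had 0.156, 0.122 and 0.146 without *Osrdr1* replicates 1, 2 and 3, and 0.122, 0.0982 and 0.0484 without WT replicates 1, 2 and 3. The log2 fold change stayed between -0.53 and -0.48 for CDKB2-1 and between -0.49 and -0.41 for CYCB2-1 in these fits.

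**Figure D1:**
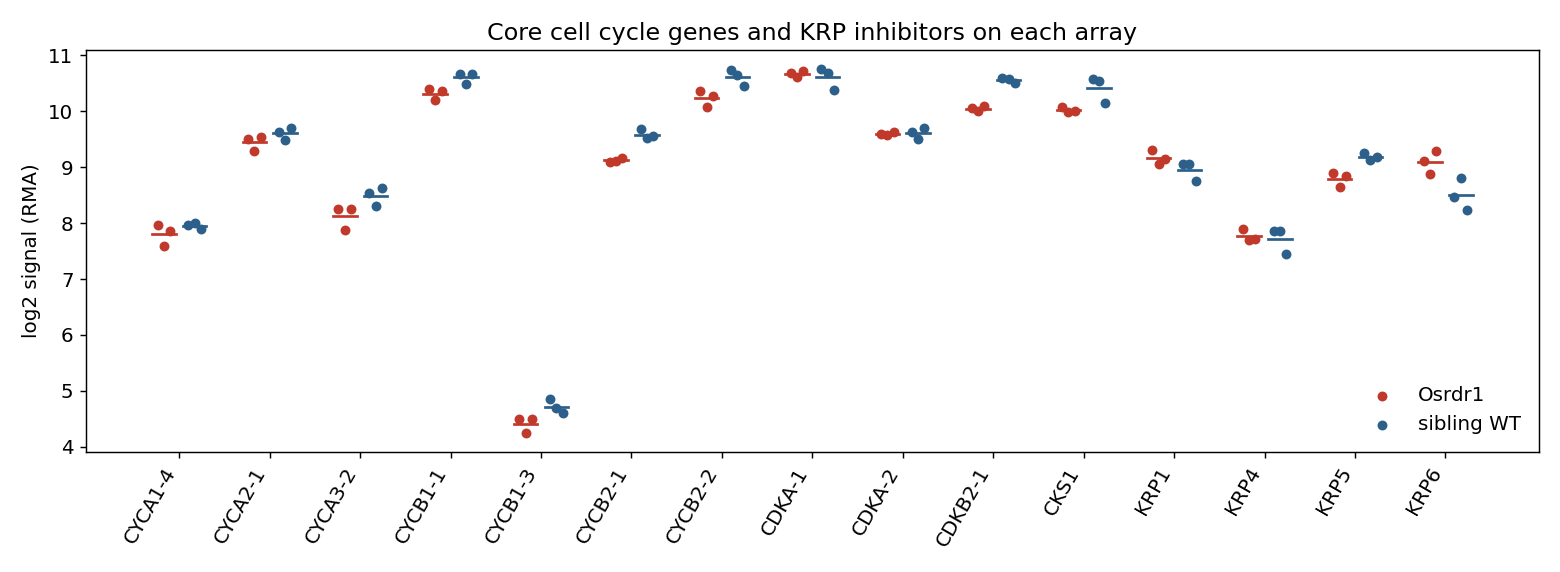
Log2 signal (vertical axis) of the A- and B-type cyclins, CDKA and CDKB kinases, CKS1 and KRP inhibitors on each array, with *Osrdr1* in red at the left of each gene and sibling WT in blue at its right; points are arrays and bars are means of 3. For CDKB2-1 the *Osrdr1* arrays lie between 10.00 and 10.09 and the WT arrays between 10.51 and 10.59, while for CDKA-1 and CDKA-2 the genotypes overlap.

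The other B-type cyclins were also lower in each *Osrdr1* array than in any WT array, but did not pass the test. CYCB2-2 had 10.36, 10.07 and 10.28 in *Osrdr1*, against 10.73, 10.64 and 10.45 in WT (log2 fold change -0.37, limma adjusted p = 0.169). Its dimmer probe set gave 8.69, 8.40 and 8.70 in *Osrdr1*, against 9.15, 8.94 and 9.01 in WT, a log2 fold change of -0.44 (limma adjusted p = 0.0985). Both readings of this gene had the same direction and a similar size.
CYCB1-1, the B-type cyclin with the brightest probe set, had 10.39, 10.20 and 10.36 in *Osrdr1*, against 10.67, 10.48 and 10.66 in WT (log2 fold change -0.29, limma adjusted p = 0.196). CYCB1-3 had 4.50, 4.24 and 4.49 in *Osrdr1*, against 4.85, 4.69 and 4.61 in WT. That difference of -0.31 was read below the median of all probe sets. In these 3 genes, as in CYCB2-1, WT replicate 1 was the highest of the arrays.

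The 3 A-type cyclins had log2 fold changes from -0.36 to -0.15, and none was called. CYCA3-2, of a class with a role at the start of S phase, had 8.25, 7.88 and 8.25 in *Osrdr1*, against 8.53, 8.31 and 8.63 in WT (log2 fold change -0.36, limma adjusted p = 0.263), with no overlap. CYCA2-1 had 9.51, 9.28 and 9.54 in *Osrdr1*, against 9.63, 9.48 and 9.70 in WT (log2 fold change -0.16, 95% interval -0.40 to 0.08), and the genotypes overlapped. CYCA1-4 also overlapped, with a log2 fold change of -0.15 and a 95% interval from -0.40 to 0.11. Without *Osrdr1* replicate 2, the lowest *Osrdr1* array for all 3 genes, these values were -0.24 for CYCA3-2, -0.08 for CYCA2-1 and -0.04 for CYCA1-4.
CKS1, a small subunit that binds CDKs and helps them find their substrates, had 10.08, 9.98 and 10.01 in *Osrdr1*, against 10.57, 10.54 and 10.15 in WT. The log2 fold change was -0.40 (SE 0.12, limma adjusted p = 0.182). Here WT replicate 3 lay close to *Osrdr1*. Without it CKS1 was at -0.53 (limma adjusted p = 0.0297), and with any other array left out it was at -0.42 to -0.32 (limma adjusted p of 0.362 to 0.415).

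CDKA kinases, which serve the cycle from its start through mitosis, overlapped between the genotypes. CDKA-1 had 10.69, 10.61 and 10.72 in *Osrdr1*, against 10.76, 10.69 and 10.38 in WT (log2 fold change 0.06, 95% interval -0.19 to 0.32). Its dimmer probe set had 5.55, 5.14 and 5.49 in *Osrdr1*, against 5.49, 5.38 and 5.39 in WT. Both probe sets thus gave overlapping genotypes.
CDKA-2 had 9.59, 9.58 and 9.63 in *Osrdr1*, against 9.63, 9.50 and 9.70 in WT (log2 fold change -0.01, 95% interval -0.20 to 0.18). A second probe set of CDKA-2 had 7.99, 7.79 and 7.99 in *Osrdr1*, against 8.02, 7.92 and 7.74 in WT. The third had 7.43, 7.27 and 7.50 in *Osrdr1*, against 7.34, 7.20 and 6.94 in WT (log2 fold change 0.24, limma adjusted p = 0.431). The brightest probe sets of both CDKA genes are of designs (suffixes _s_at and _x_at) whose probes can also match related transcripts, so some of their signal may come from elsewhere. Differences between CDKA and CDKB2-1 were not tested.
Of the 11 A- and B-type cyclins, CDKA and CDKB kinases and CKS1, 10 had negative log2 fold changes, with a median of -0.31. That share was 90.9%, against 49.0% over all genes. Before adjustment 7 were lower (63.6%, against 11.3% of all genes) and 0 higher at p under 0.05. On 7 all *Osrdr1* arrays lay below WT, against 15.2% of all genes. *Osrdr1* replicate 2 was the lowest *Osrdr1* array for 10 of the 11.

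The inhibitors went both ways. KRP6 had 9.11, 8.87 and 9.28 in *Osrdr1*, against 8.47, 8.80 and 8.24 in WT. All *Osrdr1* arrays lay above WT, with a log2 fold change of 0.59, the highest of all members (SE 0.16, 95% interval 0.20 to 0.97, limma adjusted p = 0.137). Its second probe set was dim and overlapped, with 4.11, 3.96 and 4.15 in *Osrdr1*, against 3.95, 4.07 and 3.97 in WT.
KRP5 went the other way. It had 8.90, 8.64 and 8.84 in *Osrdr1*, against 9.25, 9.12 and 9.19 in WT, with no overlap. The log2 fold change was -0.40 (SE 0.09, limma adjusted p = 0.0852), and after another quantile normalization it passed (-0.44, limma adjusted p = 0.0384).
KRP1, the KRP gene with the brightest probe set, had 9.31, 9.06 and 9.14 in *Osrdr1*, against 9.06, 9.06 and 8.75 in WT (log2 fold change 0.22, 95% interval -0.05 to 0.48), and the closest arrays were equal after rounding. KRP4 overlapped between genotypes (log2 fold change 0.05, 95% interval -0.25 to 0.35).

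None of the 13 members that act on other CDKs and on transcription was called. At an unadjusted p under 0.05 (limma), 1 was higher and 0 lower, against 16.4% and 11.3% of all genes. On 3 (23.1%) all *Osrdr1* arrays lay below WT, against 15.2% of all genes, and on 1 above, against 19.4%. The log2 fold changes of the 13 ran from -0.18 to 0.30 with a median of -0.05. CYCH-1 and CDKD-1 form the CDK-activating kinase. CYCH-1 had 8.36, 8.41 and 8.49 in *Osrdr1*, against 8.65, 8.62 and 8.51 in WT (log2 fold change -0.17, limma adjusted p = 0.4). CDKD-1 had 9.79, 9.52 and 9.82 in *Osrdr1*, against 9.95, 9.75 and 9.57 in WT (95% interval -0.34 to 0.25). The *Osrdr1* arrays were just below WT for the cyclin and overlapped WT for the kinase.
Of the T-type cyclins, partners of CDKC in the elongation of transcripts, CYCT1-4 had 10.19, 10.11 and 10.22 in *Osrdr1*, against 10.36, 10.34 and 10.23 in WT (log2 fold change -0.14, limma adjusted p = 0.516). CYCT1-2 overlapped between genotypes (log2 fold change 0.05). CDKC-1 had 8.04, 7.91 and 8.06 in *Osrdr1*, against 8.28, 7.87 and 8.09 in WT, also overlapping.
The Mediator kinase CDKE-1 and its partner CYCC1-1 had intervals on both sides of 0. CDKE-1 had 9.02, 9.03 and 9.03 in *Osrdr1*, against 9.16, 9.03 and 9.00 in WT (95% interval -0.21 to 0.14). CYCC1-1 had 10.53, 10.59 and 10.55 in *Osrdr1*, against 10.63, 10.58 and 10.47 in WT (95% interval -0.18 to 0.17). Its second probe set had 9.79, 9.79 and 9.73 in *Osrdr1*, against 9.86, 9.79 and 9.61 in WT. The intervals of both genes exclude a fall as large as the estimate for CDKB2-1.
CYCL1-1 and the CDKG kinases belong to a group tied to splicing in *Arabidopsis*, and none of the 3 was called. CYCL1-1 had 9.30, 9.30 and 9.34 in *Osrdr1*, against 9.60, 9.42 and 9.46 in WT (log2 fold change -0.18, limma adjusted p = 0.358). CDKG-1 had 8.61, 8.80 and 8.64 in *Osrdr1*, against 8.55, 8.38 and 8.22 in WT (log2 fold change 0.30, limma adjusted p = 0.239). It was the only kinase whose *Osrdr1* arrays all lay above WT on its brightest probe set. The second probe set of CDKG-1 was dim and overlapped, with 4.12, 4.04 and 4.12 in *Osrdr1*, against 4.04, 4.18 and 3.96 in WT (log2 fold change 0.03).
CDKG-2 had 9.23, 9.09 and 9.18 in *Osrdr1*, against 9.35, 9.18 and 9.23 in WT, which overlapped. Its dimmer probe sets had the opposite sign (0.05 and 0.15), with 5.83, 5.81 and 6.15, and 6.07, 5.55 and 6.08 in *Osrdr1*, against 6.11, 5.88 and 5.65, and 5.70, 5.90 and 5.65 in WT. These too overlapped.
CDKF-4 had 10.88, 10.69 and 10.83 in *Osrdr1*, against 10.82, 10.81 and 10.91 in WT. A dimmer probe set of the same gene had 6.36, 6.43 and 6.32 in *Osrdr1*, against 6.24, 6.10 and 5.52 in WT (log2 fold change 0.42, limma adjusted p = 0.345), so its readings do not share a direction. CDKF-1 and CDKF-3 overlapped between genotypes, with log2 fold changes of 0.03 and 0.05.

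P-type cyclins, relatives of a yeast cyclin of phosphate signalling, and the F-type cyclin completed the set. CYCP3-1 had 9.51, 9.26 and 9.46 in *Osrdr1*, against 9.91, 9.69 and 9.73 in WT, without overlap (log2 fold change -0.36, SE 0.10, limma adjusted p = 0.138). CYCP2-1 (0.12) and CYCP4-1 (-0.02) overlapped between genotypes. CYCF2-2 was dim, with 4.28, 4.55 and 4.12 in *Osrdr1*, against 4.27, 4.12 and 4.33 in WT.

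**Figure D2:**
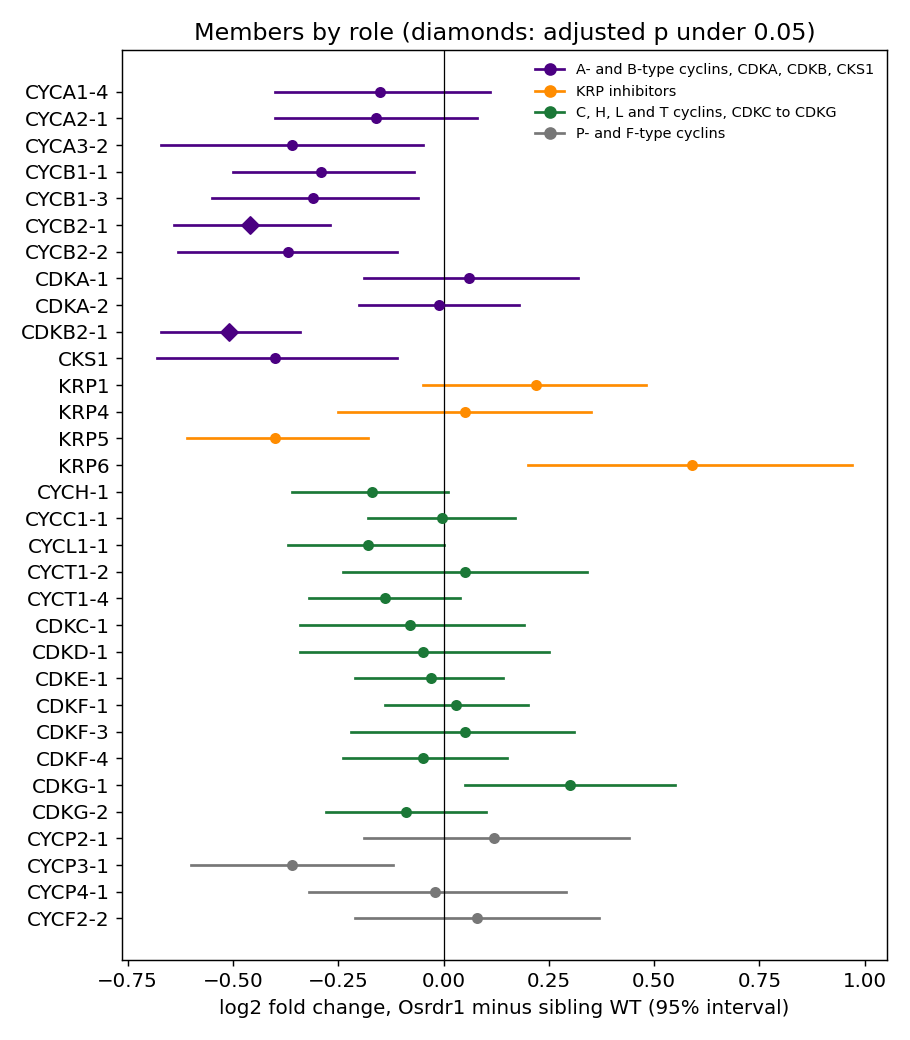
Log2 fold change (*Osrdr1* minus sibling WT, horizontal axis) of the 32 members with its 95% interval from limma, grouped by role, 3 arrays per genotype; diamonds mark an adjusted p under 0.05. CDKB2-1 (-0.51) and CYCB2-1 (-0.46) stand at the left and KRP6 (0.59) at the right, and the intervals of the CDKA kinases span 0.

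Replicates varied about as much for the members as for other genes. The median SD was 0.10 in *Osrdr1* and 0.12 in WT over the members, and 0.09 in *Osrdr1* and 0.12 in WT over all genes. The variation had a pattern, however. *Osrdr1* replicate 2 was the lowest *Osrdr1* array for 23 of 32 members, including 10 of the 11 A- and B-type cyclins, CDKA and CDKB kinases and CKS1. WT replicate 1 was the highest WT array for 21 members, and WT replicate 3 the lowest for 19. Without *Osrdr1* replicate 2, 6 members were lower at an unadjusted p under 0.05, and without WT replicate 1, 5 members were. The bacterial spike-in bioB read 8.42 to 8.62 on the *Osrdr1* arrays, against 8.23, 8.21 and 9.28 on WT replicates 1, 2 and 3, the last being the brightest. The part of these array differences in the results was not tested beyond leaving each array out.

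Other genes of cell division were read with the same fit, from lists of gene names. Kinesins and tubulins were listed by name alone, so genes without a role in division may be among them. Of the 91 listed genes, 4 were called lower and 0 higher (34 lower and 2 higher at an unadjusted p under 0.05, limma). Over all genes, 1.13% were called lower and 3.44% higher, and 11.3% were lower and 16.4% higher at that unadjusted p. The median over the 91 genes was -0.16 on the log2 scale. Among 9 D-type cyclins, 2 were called lower. CYCD3-2 had 8.13, 8.00 and 8.02 in *Osrdr1*, against 8.67, 8.64 and 8.87 in WT (log2 fold change -0.67, limma adjusted p = 0.0195). CYCD5-1 had 4.37, 4.35 and 4.46 in *Osrdr1*, against 5.31, 4.97 and 4.99 in WT, around the median of all probe sets. CYCD4-1 was at -0.57 (limma adjusted p = 0.0657).
Among 34 kinesins, the motor proteins of microtubules, 2 were called lower (against 1.13% of all genes), KIN10C (-0.63) and KIN14Q (-0.49). KIN14A (-0.70), KIN12C (-0.38) and KIN7L (-0.37) had adjusted p-values of 0.0715, 0.0686 and 0.0686 from limma.
None of the 26 genes of DNA replication was called, while 13 were lower and 0 higher at an unadjusted p under 0.05 (limma), and their median was -0.24. PCNA, the sliding clamp of the replication fork and chosen here after its values were seen, had 11.43, 11.16 and 11.30 in *Osrdr1*, against 11.75, 11.55 and 11.84 in WT (log2 fold change -0.42, limma adjusted p = 0.113). Over the replication genes, 22 of 26 had a negative log2 fold change (84.6%, against 49.0% of all genes).
Of 14 genes of mitotic progression, checkpoint and spindle, most of them tubulins, 0 were called (3 lower and 2 higher at an unadjusted p under 0.05, limma). The 3 lower were 21.4% of the list, against 11.3% of all genes, and 16.4% of all genes were higher. CENH3, the histone of centromeres, had the smallest p of this list (log2 fold change -0.45, limma adjusted p = 0.0746). EL2, a rice CDK inhibitor of another family than KRP and, like CENH3, chosen after its values were seen, had 9.46, 9.87 and 9.58 in *Osrdr1*, against 9.30, 8.63 and 8.86 in WT (log2 fold change 0.71, limma adjusted p = 0.114). Its relative SMR1 was at -0.41 (limma adjusted p = 0.201). The 5 named histone genes, all H2B, had log2 fold changes from -0.19 to 0.04. RBR1 (-0.39), RBR2 (0.12) and MYB3R-2 (-0.12) were not called.
Without any one array other than WT replicate 3, 0 of the 91 genes were called lower by limma, and 4 were without WT replicate 3. With *Osrdr1* replicate 1, *Osrdr1* replicate 3 or WT replicate 1 left out, 0 of all 17905 genes were called by limma (3930 to 4176 at an unadjusted p under 0.05).

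**Figure D3:**
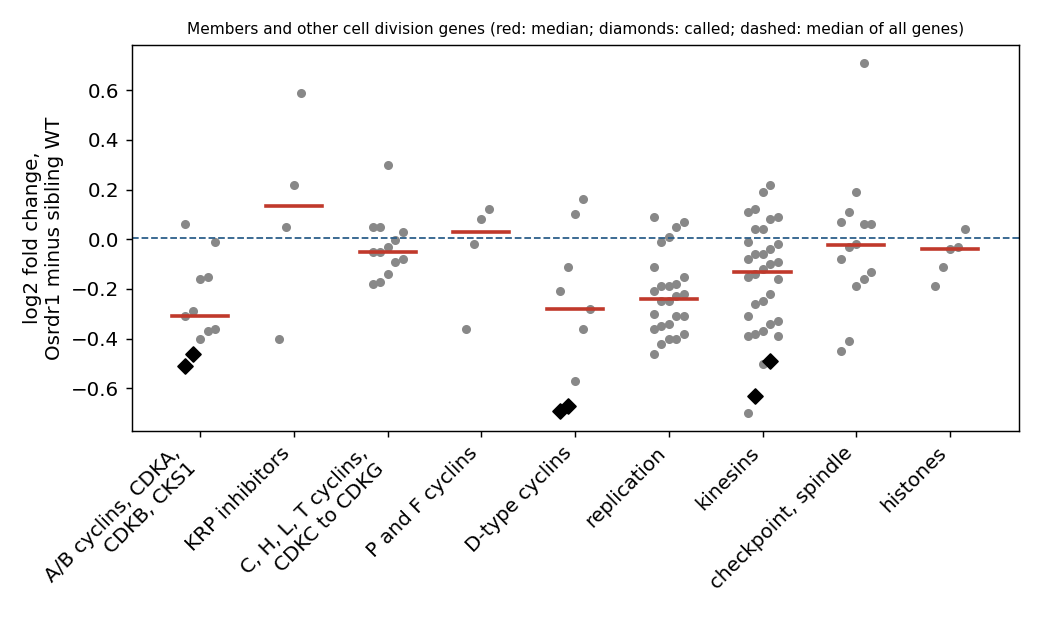
Log2 fold change (*Osrdr1* minus sibling WT, vertical axis) of each gene in the member groups and in 5 lists of other cell division genes (RBR and MYB3R genes are not drawn); each point is a gene, red bars are medians, diamonds are genes with an adjusted p under 0.05, and the dashed line is the median of all genes. The medians of the A- and B-type cyclins with CDKA, CDKB2-1 and CKS1 (-0.31), D-type cyclins (-0.28) and replication genes (-0.24) lie lowest, and that of the KRP inhibitors (0.13) highest.

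Markers of the cells that a shoot tip can hold were read beside these values. For reference, 1.13% of all genes were called lower and 3.44% higher. Of 6 knotted genes, 5 had a negative log2 fold change, against 49.0% of all genes, and 1 was called lower and 1 higher. OSH71, a marker of the meristem, had 5.84, 4.73 and 4.42 in *Osrdr1*, against 7.13, 8.26 and 6.91 in WT, and OSH1 had 6.31, 4.62 and 3.71 in *Osrdr1*, against 7.63, 8.28 and 6.15 in WT. OSH45 was called higher (0.67). The summed linear signal of the list was 772 to 803 in *Osrdr1* and 700 to 1150 in WT. OSH45, the brightest probe set of the list, made up most of that sum in *Osrdr1*. OSH71 was at -2.43 and OSH1 at -2.48 (limma adjusted p = 0.0457 and 0.162), and the median of the list was -0.47. Of 10 growth-regulating factors, which promote cell division in young leaves, 1 was called lower (GRF5, -0.60) and 0 higher, and their sum was 5490 to 6000 in *Osrdr1* and 6440 to 7340 in WT.
YABBY genes of young leaf primordia (2 of 6 called lower) summed to 7750 to 8620 in *Osrdr1* and 7990 to 8780 in WT. Green leaf cell markers went the other way, with 3 of 7 called higher (PORA, CAO and RBCS) and sums of 58800 to 60200 in *Osrdr1* and 44500 to 49600 in WT. Of 7 endosperm storage protein genes, 5 lay below the array median on all arrays, and GLUA-2 was called higher (0.70).
The 4 genes of the response to low oxygen summed to 3940 to 4110 in *Osrdr1* and 4370 to 6180 in WT. WT replicate 2 was highest, with 8.55 for PDC1, which read 3.74 to 4.09 in *Osrdr1* and 4.13 on both other WT arrays. Of 6 meiosis genes, 0 were called (limma), and their sum was 507 to 625 in *Osrdr1* and 696 to 763 in WT. The sum follows MEL1, the brightest probe set (-0.65, limma adjusted p = 0.106), while the other 5 genes ran from -0.08 to 0.30 and the median of the list was -0.01. Among them SDS, a plant cyclin of meiosis named without the cyclin prefix, read 4.16 to 4.29 in *Osrdr1* and 4.16 to 4.28 in WT. The 2 root genes summed to 406 to 427 in *Osrdr1* and 380 to 465 in WT. The part of these shifts in the values of the cyclins and CDKs was not tested.

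**Figure D4:**
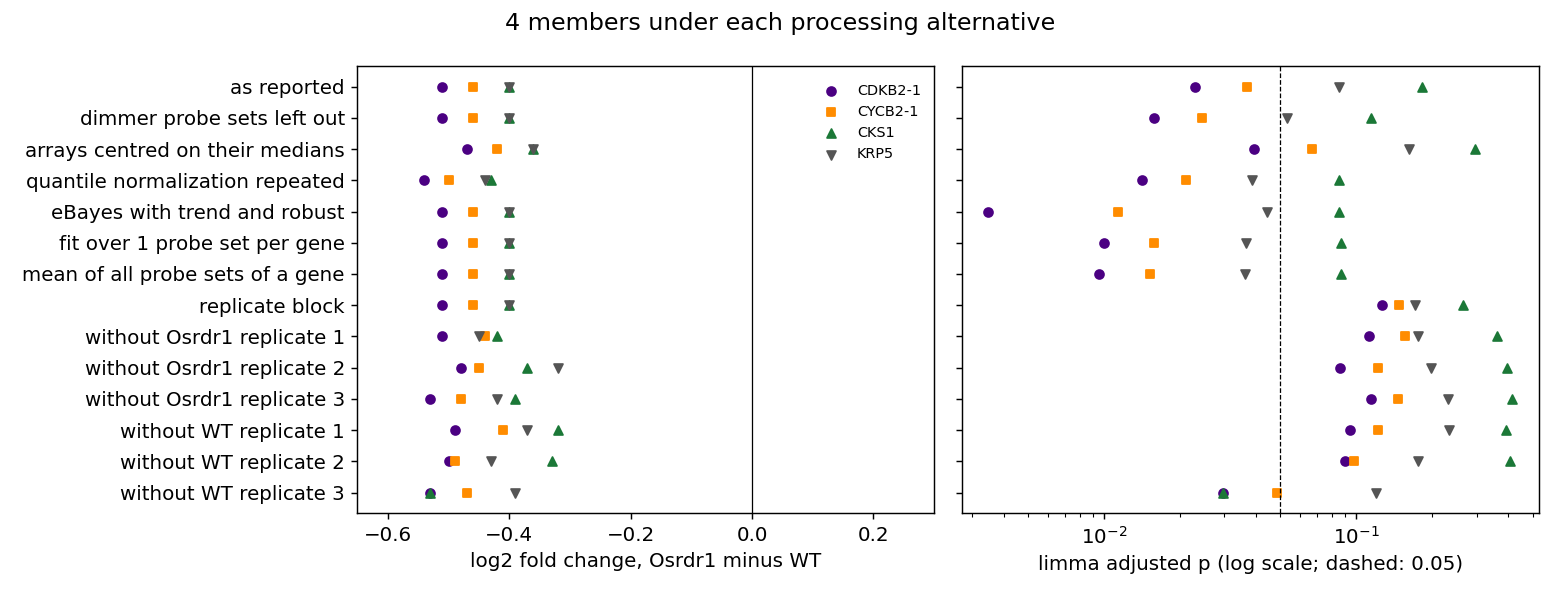
Log2 fold change (left, horizontal axis, *Osrdr1* minus WT) and limma adjusted p (right, log scale) of CDKB2-1, CYCB2-1, CKS1 and KRP5 as reported and under each alternative. All log2 fold changes lie between -0.54 and -0.32, and with 1 array left out only the fit without WT replicate 3 keeps CDKB2-1 (0.0295) and CYCB2-1 (0.0484) under 0.05.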

How the data were processed

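Total RNA (6 µg) of each of 6 shoot tip samples was labelled and hybridized to 1 array each. The authors deposited log2 values of 57381 probe sets, made with RMA in Affymetrix Expression Console per the submitters' processing notes (no version stated in these). Because RMA brings all arrays to a common distribution, an overall change in mRNA content would not show. The median of an array lay between 4.87 and 4.96.

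After removal of 123 control probe sets, 57258 remained. A linear model with genotype as its only term was fitted by lmFit and moderated by eBayes (limma 3.58.1, R 4.3.3), with Benjamini-Hochberg adjustment over all of them and calls at an adjusted p under 0.05. The methods of the paper name no test for the arrays. The fit was tested on simulated arrays with planted changes larger than that of any member. Recovery of changes of the sizes reported here was not tested. Probe sets were matched to genes through the array annotation and a RefSeq gene table (22436 probe sets with 1 gene), and each gene was represented by its brightest probe set (mean of 6 arrays). Python 3.11.15, pandas 2.3.3, scipy 1.17.1 and matplotlib 3.10.9 were used for summaries. The members and gene lists were chosen with earlier results of these data known. Values on every array are given for called members, the 12 others with the smallest p, the brightest of each class and those whose probe sets differ in direction. Of other cell division genes, those called and the 4 with the next smallest p are named by rule. PCNA, CENH3, EL2, SMR1, RBR1, RBR2 and MYB3R-2 are named outside that rule. Alternatives changed the filter, scaling, variance model, probe set choice, use of replicate numbers, arrays included and threshold. Promoter, protein and probe sequences were not used here. Precision is limited by the small number of arrays. The p-values set the difference between genotypes against the spread between these samples. They do not cover differences between insertion lines, since both genotypes descend from 1 line.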

Additional observations from a re-analysis of the deposited data

How the results depend on the processing

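With only 3 arrays per genotype, the calls of CDKB2-1 and CYCB2-1 moved with the processing while their sizes moved little; uncalled members moved more, such as KRP6 (0.33 to 0.73), KRP1 (0.11 to 0.27), CYCA1-4 (-0.23 to -0.04) and CYCP2-1 (0.01 to 0.22). Members called lower numbered 2 as reported, 1 with arrays centred on their medians, 1 with a minimum log2 fold change of 0.5, 0 with the replicate block, 2 with dimmer probe sets left out, 3 (KRP5 added) after another quantile normalization, with trend and robust, with 1 probe set per gene, with gene means and at an adjusted p under 0.1, and 0 to 3 with 1 array left out. CYCB2-1 was not called with centred arrays (-0.42, limma adjusted p = 0.0665), where CDKB2-1 was. With the replicate block neither CDKB2-1 (-0.51) nor CYCB2-1 (-0.46) was called, nor was any of the 17905 genes (limma; 4172 at an unadjusted p under 0.05). Same-numbered arrays did not deviate together (correlations of 0.138, -0.147 and -0.271), so the numbers are not taken to pair samples. With 1 array left out, CDKB2-1 ranged from -0.53 to -0.48 and CYCB2-1 from -0.49 to -0.41. Other cell division genes called lower numbered 4 as reported, 9 with dimmer probe sets left out, 12 after another quantile normalization, 13 with trend and robust (and 2 higher), 15 with 1 probe set per gene, 15 with the mean of a gene's probe sets, 11 at an adjusted p under 0.1, 0 with the replicate block and 0 to 4 with 1 array left out; the alternatives for these genes were chosen after seeing the data. Over all genes, 202 were called lower and 616 higher as reported, 121 and 711 with centred arrays, 462 and 653 after another quantile normalization, 402 and 982 with dimmer probe sets left out, 644 and 1345 with trend and robust, 648 and 1419 with 1 probe set per gene, and 601 and 1329 with gene means. Without *Osrdr1* replicate 2 they were 11 and 90, without WT replicate 2 11 and 112, and without WT replicate 3 288 and 539.

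Signs changed under at least 1 alternative for 14 members, all uncalled. Centring gave CDKA-2 0.02, CYCC1-1 0.03 and CYCP4-1 0.02, and another quantile normalization gave CDKF-1 -0.02. The mean of a gene's probe sets gave CDKA-2 0.09, CYCC1-1 0.01, CDKF-4 0.19 and CDKG-2 0.04. With 1 array left out the log2 fold changes ranged from -0.05 to 0.14 for CDKA-1, -0.06 to 0.03 for CDKA-2, -0.18 to 0.02 for CDKC-1, -0.14 to 0.05 for CDKD-1, -0.07 to 0.01 for CDKE-1, -0.05 to 0.11 for CDKF-3, -0.09 to 0.01 for CDKF-4, -0.05 to 0.03 for CYCC1-1, -0.04 to 0.17 for CYCF2-2, -0.14 to 0.09 for CYCP4-1, -0.08 to 0.13 for CYCT1-2 and -0.08 to 0.12 for KRP4. The other 18 members kept their sign in all alternatives run. The cause of these shifts was not tested.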
